A study of Mus musculus with 6 samples.

Results

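Ahnak/Cd38 nuclei were 309 of the 31738 mouse hippocampal nuclei that passed quality filters (0.974%), and 33335 nuclei were deposited in all. A nucleus was a member when it held at least 200 detected genes, at most 5% of its unique molecular identifiers (UMIs, counts of captured RNA molecules) from mitochondrial genes, at least 2 UMIs summed over the 5 marker genes Ahnak, Hal, Cd38, Clec12a and Mndal, and fewer than 2 UMIs over the macrophage genes F13a1, Mrc1, Cd163, Cd209f and Cbr2. Those 10 genes chose the members, so their levels are given as a description and without a test. The working name of the group called these nuclei monocyte-like. Monocyte genes, summed as a list, were higher in them than in other nuclei. So was the sum of a list for border-associated macrophages, the macrophages of the brain's linings, though its single genes went both ways. Microglia genes were far more abundant than either, and the nuclei are named here by their leading genes.

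The study asked how the response of microglia to tau with human APOE4 depends on TREM2, a lipid-sensing receptor of microglia. Nuclei were stained for PU.1, a transcription factor of myeloid cells, and for NeuN, sorted, and sequenced as single-nucleus RNA from the hippocampus at 9.5 months of age. There were 6 libraries, 1 per genotype, each from 3 pooled mice: P301S/E4/TREM2- (tau P301S, human APOE4, no TREM2), P301S/E4/TREM2+ (the same with TREM2), P301S/EKO/TREM2- with its counterpart P301S/EKO/TREM2+ (tau P301S without Apoe), and E4/TREM2- and E4/TREM2+ (human APOE4 without tau P301S). With 1 library per genotype, no difference between genotypes could be tested, and every interval on a count or share covers counting error only.

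The 5 marker genes belong to different branches of biology. Ahnak is a giant scaffold protein of the plasma membrane that works with annexins, Hal begins the breakdown of histidine, and Cd38 consumes NAD to make the calcium messenger cyclic ADP-ribose. Clec12a is an inhibitory C-type lectin receptor of myeloid cells, and Mndal is a nuclear DNA-binding protein of the interferon-inducible PYHIN family. Gpnmb, which defines the nuclei used for comparison, is a glycoprotein of lysosome-rich, lipid-handling macrophages. Circulating classical monocytes are known by Ly6c2, Ccr2 and Plac8, whereas resident microglia are known by P2ry12, Tmem119, Sall1 and Siglech.

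Of the defining monocyte genes, Ly6c2 had 3 UMIs among the 508444 UMIs of the P301S/E4/TREM2- members (5.90 CPM, UMIs of a gene or list scaled to an equal total for every group of nuclei). It had 4 UMIs among the 37786 of P301S/E4/TREM2+ (106 CPM), and it was at 0 in the members of the other 4 libraries. Plac8 had 2 UMIs in P301S/E4/TREM2- members and none in the members of any other library. Ccr2, the chemokine receptor by which monocytes leave the marrow, was present in members of 5 of the 6 libraries. The 23 microglia genes summed to 14649 CPM in P301S/E4/TREM2- members, where the 24 monocyte genes summed to 580 CPM. In every library the microglia list summed to more than the monocyte list. The monocyte list was in turn higher in members than in other nuclei of all 6 libraries, at 580 against 156 CPM in P301S/E4/TREM2-, 3520 against 116 in P301S/E4/TREM2+, 1746 against 48.0 in E4/TREM2+ and 980 against 84.1 in E4/TREM2-, and 77 of the 133 UMIs of P301S/E4/TREM2+ were of S100a6. A list of 12 border-associated macrophage genes, none of them in the rule, was also higher as a sum in members of all 6. Its single genes went both ways in P301S/E4/TREM2-. Of the 6 with at least 50 UMIs there, 3 were above the other nuclei and 3 below. The sum stood at 1461 against 843 CPM in P301S/E4/TREM2-, 953 against 555 in P301S/E4/TREM2+ and 3334 against 587 in E4/TREM2+. Values were 2062 against 291 in P301S/EKO/TREM2+, 1121 against 405 in P301S/EKO/TREM2- and 4771 against 560 in E4/TREM2-. In members it exceeded the monocyte list in every library but P301S/E4/TREM2+.

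Most members came from 1 genotype. P301S/E4/TREM2- held 240 of the 309 (77.7%), which was 3.43% of its 7004 passing nuclei (exact Clopper-Pearson 95% interval 3.01 to 3.88%). P301S/E4/TREM2+ held 22, or 0.356% (0.223 to 0.538%). E4/TREM2- held 19, or 0.394% (0.237 to 0.614%). Counts were 9 in P301S/EKO/TREM2- (0.178%), 9 in P301S/EKO/TREM2+ (0.251%) and 10 in E4/TREM2+ (0.197%). The intervals of those 5 libraries overlapped one another and lay below that of P301S/E4/TREM2-. Nuclei with at least 1 Gpnmb UMI and no UMI of the 5 marker genes numbered 472 in P301S/E4/TREM2- and 520 in P301S/E4/TREM2+, against 0 in E4/TREM2+, 15 in P301S/EKO/TREM2+, 3 in P301S/EKO/TREM2- and 3 in E4/TREM2-.

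Depth moved with membership. The members held from 286 to 14136 UMIs with a median of 1229, and 55 of them had more than 3 times the median of their library. In P301S/E4/TREM2- the median was 1367 UMIs in members and 915 in all passing nuclei. After every nucleus was thinned to 500 UMIs, 96 P301S/E4/TREM2- nuclei met the rule (1.37%, 1.11 to 1.67%). The count was 13 for P301S/E4/TREM2+ (0.210%), 6 for E4/TREM2+ (0.167%) and 7 for P301S/EKO/TREM2+ (0.195%). It was 6 for P301S/EKO/TREM2- (0.186%) and 13 for E4/TREM2- (0.295%). Thinning also removes macrophage UMIs, so these nuclei may include some left out at full depth for macrophage genes. That group held 131 nuclei of P301S/E4/TREM2-, and how many entered was not determined. Nuclei too shallow for thinning numbered 1488 for E4/TREM2+, 417 for E4/TREM2- and 1827 for P301S/EKO/TREM2-, and 0 for each other library. Among 149 nuclei with 10 or more neuronal UMIs, which should lack these genes, 4 held 2 or more marker UMIs (2.68%, 0.736 to 6.73%, median depth 3264 UMIs), and 0 of 149 did after thinning (exact upper limit 2.45%). These neuronal nuclei are too few to set the member shares apart from such background. Their upper limits lie above the shares of P301S/E4/TREM2-, 3.43% before thinning and 1.37% after it. Of the members, 2 carried a cell barcode that also occurred in another library.

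**Figure D1:**
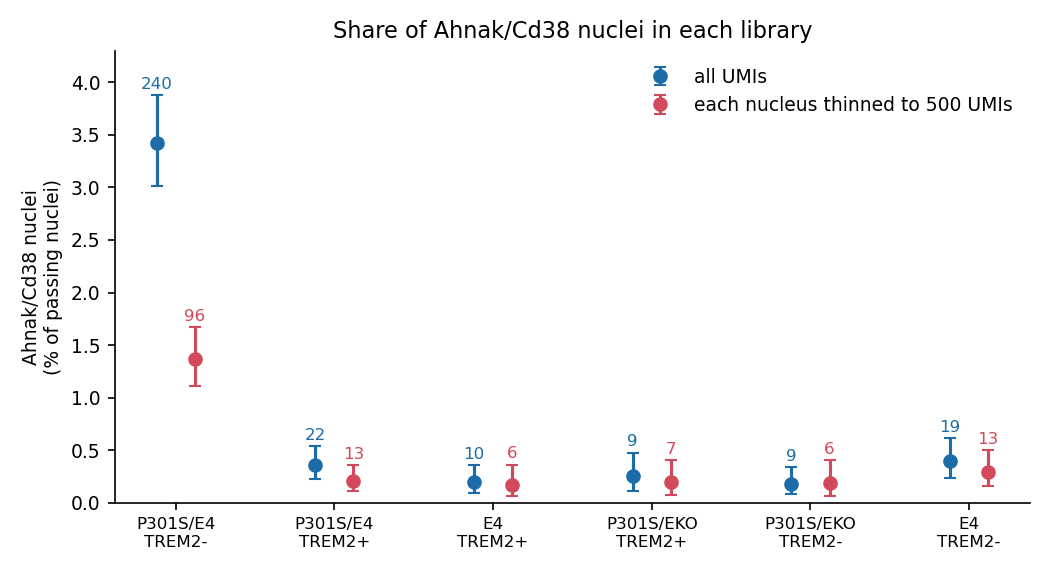
Share of Ahnak/Cd38 nuclei among the passing nuclei of each library (%, vertical axis) with all UMIs (blue) and after thinning each nucleus to 500 UMIs (red). Bars are exact 95% binomial intervals and the numbers above them count members. The P301S/E4/TREM2- library stands at 3.43% and 1.37%, above the other 5 libraries, which lie between 0.167% and 0.394%.

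Marker genes were combined differently from nucleus to nucleus. Of the 309 members, 98 had UMIs of 1 marker gene alone, 153 of 2, 51 of 3, 6 of 4 and 1 of all 5. In P301S/E4/TREM2-, Mndal was detected in 113 of 240 members (47.1%), Cd38 in 112 (46.7%), Ahnak in 97 (40.4%), Hal in 86 (35.8%) and Clec12a in 71 (29.6%). The balance was another one in E4/TREM2-, where 12 of 19 members held Mndal and 12 held Clec12a, while 3 held Cd38, 2 Ahnak and 1 Hal. In CPM, Hal stood at 321 (273 to 374) in P301S/E4/TREM2- members, 212 in P301S/E4/TREM2+, 159 in E4/TREM2+, 118 in P301S/EKO/TREM2- and 65.4 in E4/TREM2-, and had no UMI in P301S/EKO/TREM2+. Clec12a ran the other way, at 216 CPM in P301S/E4/TREM2-, 238 in P301S/E4/TREM2+, 236 in P301S/EKO/TREM2-, 773 in P301S/EKO/TREM2+, 794 in E4/TREM2+ and 1634 in E4/TREM2-. Outside P301S/E4/TREM2- these levels rest on 0 to 8 Hal UMIs and 4 to 25 Clec12a UMIs per library. Each member needed 2 marker UMIs at any depth, so marker CPM in members is raised by the rule where nuclei are shallow. Median depth of members was 1367 UMIs in P301S/E4/TREM2-, 694 in E4/TREM2- and 562 in E4/TREM2+.

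The threshold did not fall in a gap. In P301S/E4/TREM2-, 286 nuclei held 1 marker UMI, 99 held 2, 68 held 3 and 73 held 4 or more. The share with at least 1 Gpnmb UMI was 7.65% among the 6166 nuclei with no marker UMI, 38.5% at 1 marker UMI, 50.5% at 2, 69.1% at 3 and 65.8% at 4 or more. The summed microglia list went from 26683 CPM at 0 marker UMIs to 18569 at 1, 15626 at 2, 14211 at 3 and 13803 at 4 or more. Nuclei just outside the rule, with 1 marker UMI, thus lay between the rest and the members on both measures.

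**Figure D2:**
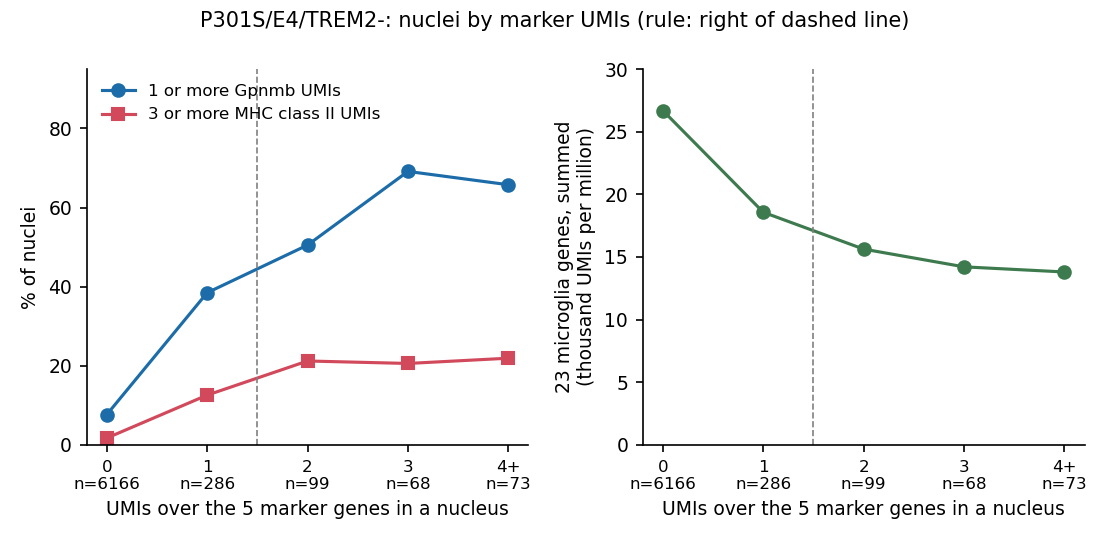
P301S/E4/TREM2- nuclei grouped by their UMIs over the 5 marker genes (horizontal axis, with the number of nuclei). The left panel gives the percent with 1 or more Gpnmb UMIs (blue circles, 7.65% to 69.1%) or 3 or more MHC class II UMIs (red squares), the right panel the summed microglia list (CPM, from 26683 to 13803), and the dashed line marks the rule.

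By Gpnmb and MHC class II transcripts the members could be divided into 2 main kinds, a division chosen after the values were seen. One kind, called here Gpnmb-positive members, had at least 1 Gpnmb UMI and fewer than 3 UMIs over 8 MHC class II genes, whose products present peptides to helper T cells. It numbered 138 nuclei, 129 in P301S/E4/TREM2- and 9 in P301S/E4/TREM2+, and none in the other 4 libraries. The other kind, MHC class II members, had 3 or more of those UMIs and no Gpnmb UMI. It numbered 67 nuclei and was found in every library, with 35 in P301S/E4/TREM2-, 14 in E4/TREM2-, 5 each in E4/TREM2+ and P301S/EKO/TREM2+, and 4 each in P301S/E4/TREM2+ and P301S/EKO/TREM2-. A further 17 members met both conditions and 87 neither, and 8 members stood exactly at 3 MHC class II UMIs with 23 just below, at 2.

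Gpnmb went with the marker genes in the P301S/E4 pair of libraries. At least 1 Gpnmb UMI was found in 145 of 240 P301S/E4/TREM2- members (60.4%, 53.9 to 66.6%) against 9.02% of the library's other nuclei, and in 10 of 22 P301S/E4/TREM2+ members (45.5%, 24.4 to 67.8%) against 540 of 5998 other nuclei. Here and below, other nuclei are the 30387 passing nuclei that were no members and held fewer than 2 UMIs of the 5 macrophage genes. None of the members of the other 4 libraries had a Gpnmb UMI, although a few other nuclei of 3 of those libraries did. For the 19 members of E4/TREM2- the exact upper limit was 17.6%. MHC class II transcripts went with the marker genes in all 6 libraries. Members with 3 or more such UMIs were 51 of 240 in P301S/E4/TREM2- (21.3%, other nuclei 2.22%), 5 of 22 in P301S/E4/TREM2+ (22.7%, 6.47%), 5 of 10 in E4/TREM2+ (50%, 0.778%), 5 of 9 in P301S/EKO/TREM2+ (55.6%, 1.34%), 4 of 9 in P301S/EKO/TREM2- (44.4%, 0.343%) and 14 of 19 in E4/TREM2- (73.7%, 1.44%).

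**Figure D3:**
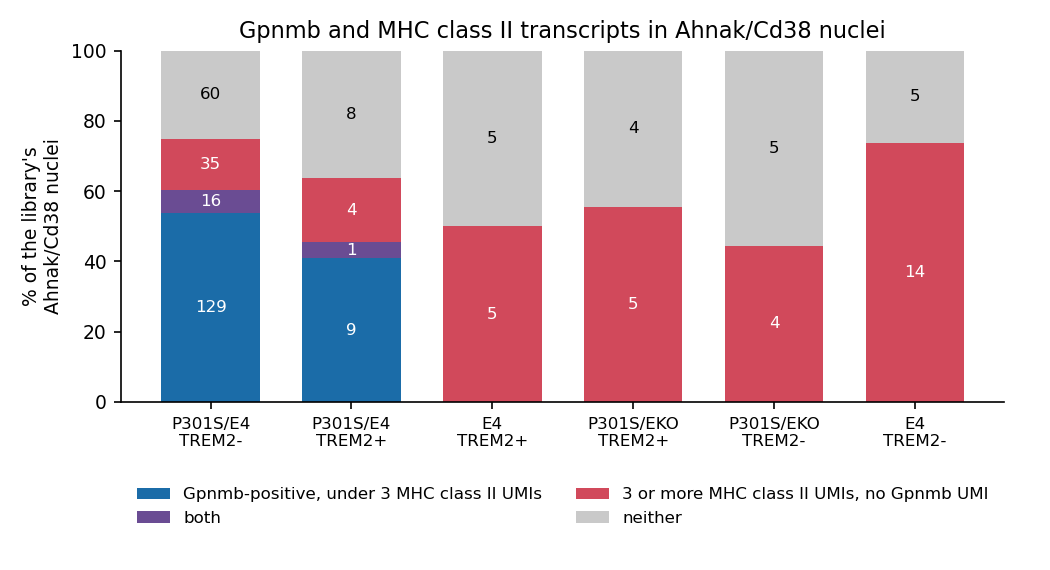
Make-up of the Ahnak/Cd38 nuclei of each library (% of members, vertical axis) by Gpnmb and MHC class II UMIs, with the number of nuclei in each segment. Gpnmb-positive members (blue, 129 and 9) lie in the 2 P301S/E4 libraries, while MHC class II members (red) occur in all 6.

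Hal set the kinds apart most among the marker genes. It was detected in 66 of the 138 Gpnmb-positive members (47.8%) and in 1 of the 67 MHC class II members (1.49%). Cd38 was in 47.8% of the former and 22.4% of the latter, and Ahnak in 44.9% and 31.3%. Median depth was 1489 UMIs in the former and 861 in the latter, which moves with these shares. Clec12a and Mndal were distributed the other way, at 23.2% and 38.4% of Gpnmb-positive members against 49.3% and 64.2% of MHC class II members. Within P301S/E4/TREM2-, Hal stood at 459 CPM (128 UMIs) in Gpnmb-positive members and 19.4 CPM (1 UMI) in MHC class II members, a log2 ratio of 3.99 (2.06 to 9.88). On the same scale Cd38 did not differ beyond counting error (0.04, -0.67 to 0.92), nor did Ahnak (-0.36, -1.03 to 0.43), while Clec12a (-1.65, -2.35 to -0.89) and Mndal (-1.79, -2.31 to -1.25) were lower in the Gpnmb-positive members. Ahnak2, a close relative of Ahnak that the rule did not use, was 4.48 higher on the log2 scale in the Gpnmb-positive members (180 UMIs against 1), and Spp1, osteopontin, was 4.01 higher (130 against 1). Ccr2 was lower in them by a log2 ratio of -3.92 (-5.17 to -2.89), with 10 UMIs against 29. These are values of 1 library, and both kinds were cut from counts of the same nuclei, so none was tested. The ratios of the 5 marker genes are also shaped by the rule and by depth. In this library the medians of the kinds were 1488 and 991 UMIs.

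Clusters place the members among the other nuclei. The clustering left out the 10 rule genes but used Gpnmb and the MHC class II genes that define the kinds, so its division of the kinds is no independent finding. In it, 177 of the 240 P301S/E4/TREM2- members (73.75%) fell in a cluster of 1458 nuclei led by Gpnmb, Ahnak2, Spp1 and Adam33, which also held 132 of the 138 Gpnmb-positive members and 611 of the 1013 Gpnmb-positive nuclei without marker genes. A cluster of 958 nuclei led by Cd74, Ccr2 and the class II chains H2-Ab1, H2-Eb1 and H2-Aa held 56 of the 67 MHC class II members. Members were 12.7% of the first cluster and 7.20% of the second, so in neither did they stand as a cluster of their own. The genes leading the second cluster depended on the resolution, which was 1 here. At 0.5, 56 of the 67 MHC class II members fell in a cluster of 1315 nuclei led by the macrophage genes Mrc1 and F13a1. At 2, 53 of them fell in a cluster of 370 nuclei, where class II chains led again.

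Members were then tested against Gpnmb-positive nuclei without marker genes, with UMIs summed per library and class. Members needed no Gpnmb UMI, so nuclei with MHC class II transcripts but no Gpnmb could enter only the member class. This fit covered 8174 genes in the 2 P301S/E4 libraries, the only ones with 10 or more nuclei of each class, and left 1 residual degree of freedom. By edgeR's quasi-likelihood test with Benjamini-Hochberg adjustment at 0.05, 63 genes were higher in the members (0.771% of the genes tested) and 0 were lower (0%), with 272 genes at an unadjusted p of 0.05 or less. The count of higher genes ran from 1 without the library term to 64 with DESeq2 size factors over the settings tried. Ifi203, H2-Eb1, H2-Ab1, Ccr2, Cd74, H2-Aa and F630028O10Rik were higher in members of both libraries. So were genes of astrocytes, the Aqp4 water channel, Slc1a2 glutamate transporter, Gja1 connexin, Gfap filament and Slc4a4 transporter, with Sparcl1, Atp1b2, Tmem47, Gstm1, Ptprz1 and Cxcl5.

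The astrocyte genes came with a few deep nuclei. Of the members, 23 held 3 or more UMIs over 8 astrocyte genes, 17 in P301S/E4/TREM2- and 4 in P301S/E4/TREM2+, and their median was 5135 UMIs against 1174 in the other members. A cut at a fixed number of UMIs itself favours deep nuclei. These nuclei with astrocyte transcripts gave 20.3% of all member UMIs in P301S/E4/TREM2- and 51.5% in P301S/E4/TREM2+. Without nuclei of this kind in either class, 13 of 7184 genes were called, of which 7 had been called with them: Ccr2, Cd74, F630028O10Rik, H2-Aa, H2-Ab1, H2-Eb1 and Ifi203. Slc1a2 went from a log2 fold change of 4.39 to 0.18, Gfap from 3.44 to 0.09 and Vim from 4.48 to 1.73, and none of these was then called. Slc1a2 and Gfap are among the 8 genes whose UMIs chose the nuclei left out, so their fall was fixed in advance. Of the 56 calls lost, 39 were of genes no longer tested. Cd93, Ciita, Ebf1, Gm21188, Ldlrad3 and Slamf7 were called only in the fit without astrocyte transcripts.

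Ifi203, a PYHIN gene like Mndal, had the smallest adjusted p among those 7 genes in the fit on all nuclei. It stood at 264 CPM (221 to 312) in P301S/E4/TREM2- members and 212 (91.4 to 417) in P301S/E4/TREM2+ members, against 18.4 and 10.2 CPM in the Gpnmb-positive nuclei. Members of the other libraries had 1429 CPM in E4/TREM2+, 1117 in P301S/EKO/TREM2+, 590 in P301S/EKO/TREM2- and 784 in E4/TREM2-, on 9 to 13 UMIs each. All 6 lay above the other nuclei of their library, which ranged from 5.49 to 16.5 CPM. The log2 fold change over Gpnmb-positive nuclei was 3.98 (SE 0.65, edgeR adjusted p 1.07e-06), and it was 4.02 without astrocyte transcripts. At equal depth of 500 UMIs, 15.4% of P301S/E4/TREM2- members had an Ifi203 UMI against 1.06% of the Gpnmb-positive nuclei and 0.573% of the other nuclei.

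Ifi203 and Mndal are neighbours on chromosome 1 (GRCm38; Mndal 173849126-173942491, Ifi203 173920407-173942672, both on the minus strand) whose GENCODE vM21 spans overlap by 22085 bases. The RefSeq start of Mndal printed below lies outside the span of Ifi203, but reads within the overlap cannot be told apart, and Ifi203 may therefore be in part the measure that chose the members. Their promoters are shown because this rule gene and its called neighbour begin with almost the same letters. RefSeq (GRCm38.p6) gives these 120 bases before each start, chr1:173880188-173880307 and chr1:173942493-173942612, read on the minus strand, with the match to a motif of GAAA, any 2 bases and GAAA in capitals:
Mndal: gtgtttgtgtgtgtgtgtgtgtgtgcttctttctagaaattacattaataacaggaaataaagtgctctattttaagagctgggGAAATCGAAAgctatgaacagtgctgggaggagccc
Ifi203: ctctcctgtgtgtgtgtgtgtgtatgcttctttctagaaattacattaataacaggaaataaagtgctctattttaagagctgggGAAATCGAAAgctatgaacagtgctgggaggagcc
The motif is the interferon-stimulated response element, which interferon-activated factors read. It was found on either strand in the 250 bases before the start of 978 of 32851 promoters (2.98%). The match is a description and not a measured site, and the windows of Ahnak, Hal, Cd38, Clec12a and Gpnmb held no match to these letters. RefSeq gives 2 start windows each for Ifi203 and Mndal, and 1 of those of Ifi203 held no match.

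Ccr2 and 4 antigen-presentation genes were among the other 6 genes called both with and without astrocyte transcripts. Ccr2 stood at 110 CPM (83.2 to 143) in P301S/E4/TREM2- members and 344 (183 to 588) in P301S/E4/TREM2+ members, against 15.8 and 14.5 CPM in Gpnmb-positive nuclei, a log2 fold change of 3.53 (SE 0.64, edgeR adjusted p 2.62e-05). Without MHC class II nuclei it was 2.87 and no longer called (edgeR adjusted p 0.0695). Members of the other libraries had 476 CPM on 3 UMIs in E4/TREM2+, 457 on 7 UMIs in E4/TREM2-, 118 on 2 UMIs in P301S/EKO/TREM2- and no Ccr2 UMI in P301S/EKO/TREM2+. H2-Eb1, a class II beta chain, rose by 3.79 (SE 0.66, edgeR adjusted p 1.15e-05) on the log2 scale over Gpnmb-positive nuclei, and Cd74, the invariant chain that escorts class II molecules, by 2.97 (SE 0.71, edgeR adjusted p 0.00594). Of 7 MHC class II genes tested, 4 rose and 0 fell, with a median log2 fold change of 2.92 where the median of all genes tested was -0.11. These rises, and that of Ccr2, may be built in part into the comparison, which kept nuclei without Gpnmb out of the reference class. How large that part is was not tested. Cd74 stood at 566 CPM in P301S/E4/TREM2- members, 4129 in P301S/E4/TREM2+, 6509 in E4/TREM2+, 2749 in P301S/EKO/TREM2+, 1770 in P301S/EKO/TREM2- and 8822 in E4/TREM2-, above the other nuclei of each library (62.3 to 352 CPM). Few nuclei carried these levels: the 4 MHC class II members of P301S/E4/TREM2+ gave 147 of its 156 Cd74 UMIs, and the 35 of P301S/E4/TREM2- with the 16 that also held Gpnmb gave 162 and 101 of its 288.

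Most gene lists of microglial activation showed no call. In the fit against Gpnmb-positive nuclei, 0 of 22 genes of the second stage of disease-associated microglia (DAM) passed in either direction, with a median log2 fold change of -0.36. Among 20 genes of lipid loading and lysosome, 0 were called (median -0.19), and among 23 interferon-response genes 0 were called (median 0.21). None of 22 microglia genes was called, although 21 of 21 were lower in P301S/E4/TREM2- members alone. Ccr2 and S100a6 were the called genes of 7 tested on the monocyte list, and S100a6, a calcium-binding protein, was too low to be tested without astrocyte transcripts. Clec10a, a lectin, was the 1 called gene of 7 on the border-associated macrophage list, and Ifi203 the 1 called of 8 PYHIN genes.

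**Figure D4:**
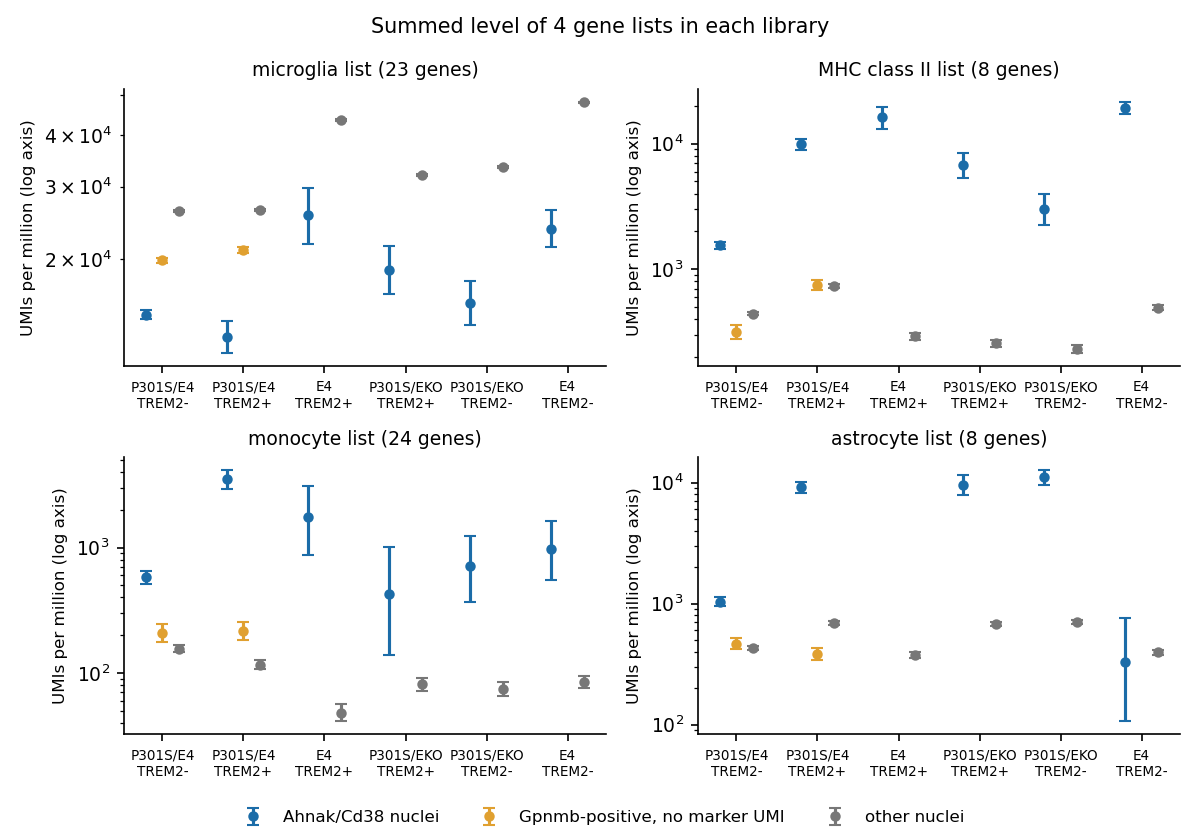
Summed CPM (log axes) of the microglia, MHC class II, monocyte and astrocyte lists in members (blue), Gpnmb-positive nuclei without marker UMIs (orange, drawn for the P301S/E4 pair) and other nuclei (grey), with exact Poisson 95% intervals. Members lay below the other nuclei for the microglia list and above them for the MHC class II and monocyte lists in all 6 libraries, and the astrocyte list had 0 UMIs in E4/TREM2+ members, where no point is drawn.

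Gpnmb-positive members could be set beside Gpnmb-positive nuclei without marker genes within P301S/E4/TREM2-, with nuclei of 3 or more MHC class II UMIs left out of both. Genes were picked for display after their values were seen, and none was tested. Ifi203 (log2 ratio 3.68, 2.79 to 4.81, 59 UMIs against 11), Atp6v0d2, a proton-pump subunit of osteoclasts and macrophages (3.04), Myof, myoferlin of membrane repair (2.96), Cybb, the catalytic subunit of the phagocyte NADPH oxidase (2.82), and Adgre5, the adhesion receptor CD97 (2.70), were among the highest, with Gm21188 (2.78). Spp1 (1.14), Ms4a7 (1.42) and Itga4, an integrin of trafficking leukocytes (1.85), were also higher, with intervals above 0. Gpnmb itself, by which both groups were chosen, was 1.74 times as high in the members (740 UMIs against 1056, in fewer nuclei). Of the library's 472 Gpnmb-positive nuclei without marker genes, at any MHC class II level, 189 held 2 or more Gpnmb UMIs. Of the 155 members of all libraries with a Gpnmb UMI, 113 did. Whether the other ratios follow the amount of Gpnmb was not tested. Mmp12, macrophage elastase, was lower (-1.68, -2.68 to -0.89), as were Tmem119 (-1.17), C1qa (-0.99), P2ry12 (-0.93) and the microglia list as a whole (-0.65, -0.70 to -0.60). The MHC class II list, low by construction in both, had a ratio of 0.00, and Ccr2 one of 1.18 with an interval of -0.22 to 2.55 that includes 0.

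In P301S/E4/TREM2+ the Gpnmb-positive members were 9 nuclei, and their values were not the same throughout. Myof and Atp6v0d2 had no UMI in them, against 51 and 55 UMIs in the Gpnmb-positive nuclei. Cybb had 1 UMI, and Ifi203 had 1 UMI against 7. Vim, an intermediate filament protein, had 176 UMIs against 17, and the astrocyte list was 4.39 higher on the log2 scale. The monocyte list was 4.60 higher (97 UMIs against 117) and Ccr2 4.62 higher (2.55 to 6.58, 5 UMIs against 6). Over all members of this library most UMIs of the monocyte list were of S100a6, as given above. The microglia list was lower in them as well, by a log2 ratio of -0.78 (-0.99 to -0.58). Whether the libraries differ could not be tested.

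**Figure D5:**
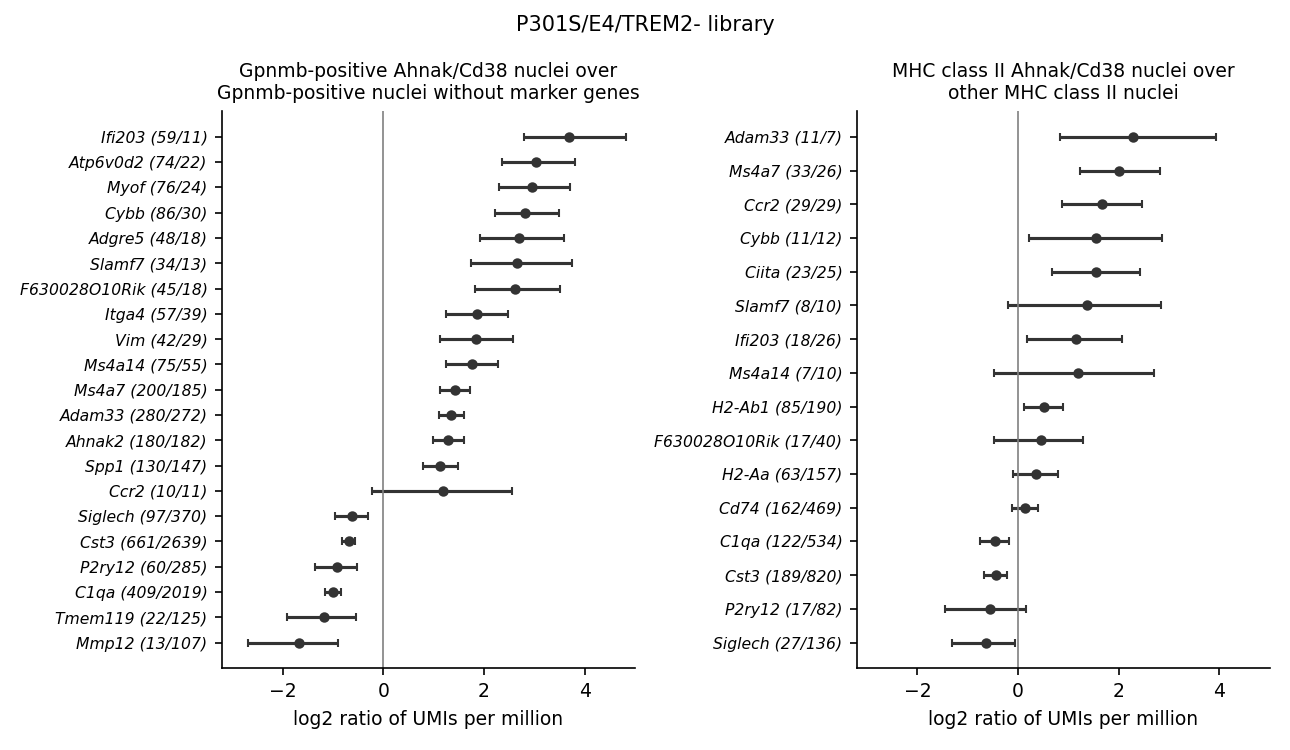
Log2 ratios of CPM in P301S/E4/TREM2- with 95% counting intervals, gene names followed by the UMIs in each class. Left, Gpnmb-positive members over Gpnmb-positive nuclei without marker genes, from Ifi203 at 3.68 to Mmp12 at -1.68; right, MHC class II members over other MHC class II nuclei, from Adam33 at 2.29 to Siglech at -0.64.

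MHC class II members were compared in the same way with other nuclei that had 3 or more MHC class II UMIs and no Gpnmb UMI. In P301S/E4/TREM2-, Adam33 (2.29), Ms4a7 (2.01, 1.23 to 2.81), Ccr2 (1.67, 0.88 to 2.46) and Ciita, the master activator of class II genes (1.55), were higher in the members on the log2 scale. Cd74 was alike in both (0.14, -0.13 to 0.40), and the microglia list was lower in the members (-0.41, -0.52 to -0.31). In the other libraries these members were 4 to 14 nuclei each, and values are given library by library. Cd74 was higher in the members of all 5, by log2 ratios of 4.23 in P301S/E4/TREM2+, 2.43 in P301S/EKO/TREM2+, 1.57 in E4/TREM2+, 1.02 in P301S/EKO/TREM2- and 0.80 in E4/TREM2-, with intervals above 0. Ccr2 was higher beyond counting error in P301S/E4/TREM2+ (4.32, 2.19 to 5.74, 4 UMIs against 22), while its interval in E4/TREM2- included 0 (1.03, -0.53 to 2.30). Ifi203 was higher beyond counting error in E4/TREM2+ (2.27) and P301S/EKO/TREM2+ (4.48), and its interval in E4/TREM2- included 0 (0.71, -0.46 to 1.68). The microglia list was lower in 4 of these 5 libraries, with log2 ratios of -0.49 to -0.70, and not beyond counting error different in P301S/EKO/TREM2- (0.16, -0.31 to 0.58). Mgl2, a galactose-binding lectin of macrophages and dendritic cells, was led by P301S/E4/TREM2+, with 12 UMIs in 4 members against 1 UMI in 327 other nuclei. Its relative Clec10a had 5 UMIs in the 14 E4/TREM2- members against 4 UMIs in 66 other nuclei (2.62, 0.44 to 4.99). Genes of dendritic cells were also seen in those 14 members, with 2 UMIs of Cd209a, 2 of Flt3 and 1 of Zbtb46 against 0 of each in the other nuclei, too few to give a ratio beyond counting error. In P301S/E4/TREM2-, Mgl2 and Clec10a had 1 and 3 UMIs in these members and did not differ beyond counting error.

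The 87 members with neither Gpnmb nor 3 MHC class II UMIs were mostly P301S/E4/TREM2- nuclei as well. The 60 of them in P301S/E4/TREM2- had 16877 CPM of the microglia list, 228 CPM of Ifi203 (25 UMIs), 91.3 CPM of Ccr2 (10 UMIs) and 320 CPM of P2ry12 (35 UMIs). The 27 in the other libraries had 17101 CPM of the microglia list and 485 CPM of Ifi203 (21 UMIs).

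Within P301S/E4/TREM2- alone, with all its members summed, 81 of 4758 genes were more than 2-fold higher than in the Gpnmb-positive nuclei (1.7%) and 46 were more than 2-fold lower (0.967%), as a description of 1 library. Ifi203 was highest (134 UMIs against 14), and Ldlrad3 (3.21), Myof (2.52), Slamf7, a receptor of the SLAM family (2.38), Cybb (2.37) and Atp6v0d2 (2.34) were among the 15 highest. Sparcl1 (3.38) and the astrocyte gene Aqp4 (2.79) were among these 15 too. Mmp12 was lowest (-2.41, 13 UMIs against 107), followed by Lrrc39 (-2.12), Tmem63a (-1.65) and Yes1 (-1.63). Against the other nuclei of that library, 479 of 10207 genes were more than 2-fold higher in the members (4.69%) and 509 more than 2-fold lower (4.99%). Slc7a2, a transporter of basic amino acids (4.84), Tlr8, a receptor of single-stranded RNA (4.68), Atp6v0d2 (4.37), Myof (4.31) and Kynu, kynureninase (3.64), were among the highest. So were the astrocyte genes Slc4a4 (3.96), Gja1 (3.88) and Aqp4 (3.42). The 17 members with 3 or more astrocyte UMIs, which gave 20.3% of this library's member UMIs, were not left out here.

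The fit against all other nuclei brought in the libraries without Gpnmb. It covered 10463 genes in the 4 libraries with 10 or more members, both P301S/E4 and both E4 libraries, and called 137 genes higher (1.31%) and 27 lower (0.258%) by edgeR. Without P301S/E4/TREM2- the same test called 32 higher and 67 lower, and without E4/TREM2- it called 150 higher and 1 lower. Without astrocyte transcripts it called 123 higher and 63 lower, sharing 93 genes with the fit on all nuclei. Under each of the 15 other settings in which they were tested, 10 genes stayed called, all higher in the members: Ccr2, F630028O10Rik, Gm21188, H2-Ab1, H2-Eb1, Ifi203, Igfbp5, Mgst1, Prex2 and Vim. Of these, Ccr2, F630028O10Rik, Ifi203 and Vim were tested in all 15. H2-Ab1 and H2-Eb1 were tested in 14, Gm21188 and Mgst1 in 13, and Igfbp5 and Prex2 in 11.

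Genes of resident microglia were lower in the members. Of 23 tested on the microglia list, 10 fell and 0 rose, with a median log2 fold change of -1.79 where the median of all genes tested was -0.35. Siglech, a sialic-acid-binding receptor, fell by 2.48 on the log2 scale (SE 0.53, edgeR adjusted p 0.000584) and P2ry12, the purinergic receptor that steers microglial processes, fell by 2.40 (SE 0.56, edgeR adjusted p 0.00268). Sall1, the transcription factor of microglial identity, fell by 2.41, and Cx3cr1, Csf1r, Gpr34, Cst3, Ltc4s and Lgmn were among the others that fell. Outside the list, Nav3, Csmd3, Mlxipl and Gm43221 fell by 2.43, 2.40, 2.17 and 2.66. P2ry12 stood at 264 CPM in P301S/E4/TREM2- members, 52.9 in P301S/E4/TREM2+, 318 in E4/TREM2+ and 327 in E4/TREM2-, against 549, 361, 1268 and 1391 CPM in the other nuclei. Members were lower than other nuclei in each of these libraries, on 134, 2, 2 and 5 P2ry12 UMIs. The calls on this list rest on E4/TREM2-: without that library 0 of the 23 genes were called, without E4/TREM2+ 3, without P301S/E4/TREM2+ 4 and without P301S/E4/TREM2- 18, while 23 of 23 stayed below 0 each time. Without nuclei of 3 or more MHC class II UMIs, which left only the P301S/E4 pair with enough members, 0 were called and 23 were below 0.

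Several genes of the monocyte, MHC class II and membrane scaffold lists were higher. On the monocyte list 5 of 7 genes tested rose and 0 fell: Ccr2, S100a6, Itga4, Ms4a4c and Cd44 (median 2.85), of which 4 of 6 tested passed without astrocyte transcripts. Of 8 MHC class II genes 5 rose, Ciita with H2-Aa, H2-Ab1, H2-Eb1 and Cd74 (median 3.51). On the list of border-associated macrophages, the macrophages of the brain's linings, 4 of 7 rose, Ms4a7, Dab2, Siglec1 and Clec10a, and 1 of 7 did without E4/TREM2-. On the annexin, S100 and scaffold list 4 of 9 rose, S100a11, Anxa5, Myof and Vim, and 3 passed without astrocyte transcripts. Astrocyte genes rose for 4 of 6 tested and for 0 of 3 without nuclei holding astrocyte transcripts, which the same genes had chosen. The astrocyte list in members was 1037 CPM in P301S/E4/TREM2-, 9104 in P301S/E4/TREM2+, 0 UMIs in E4/TREM2+ and 327 CPM in E4/TREM2-. In members it was also 9621 CPM in P301S/EKO/TREM2+ and 11035 CPM in P301S/EKO/TREM2-, where 1 nucleus gave 34.8% and 75.2% of all member UMIs.

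Vim had the highest fold change of the named genes, 4.79 on the log2 scale (SE 0.72, edgeR adjusted p 2.86e-08), but 193 of its UMIs came from P301S/E4/TREM2+ members at 5108 CPM, against 144 CPM in P301S/E4/TREM2-, and it was 2.72 without astrocyte transcripts. Ifi203 followed at 4.71, then Mgl2 at 4.55 (13 of its 19 member UMIs from P301S/E4/TREM2+), H2-Eb1 at 4.22, H2-Aa at 3.85, H2-Ab1 at 3.84 and Cd74 at 3.73, each higher in 4 of 4 libraries. Myof (3.70), Adam33, a metalloprotease (3.56), F630028O10Rik (3.52) and Ccr2 (3.49) were also among the 12 highest. Ms4a7, of a membrane-spanning family of macrophages, was at 673 CPM in P301S/E4/TREM2- members, 318 in P301S/E4/TREM2+, 159 on 1 UMI in E4/TREM2+ and 2222 in E4/TREM2-, above the other nuclei in each, and rose by 2.77. Chst8, Leo1, Gm26720, AI429214 and Shmt1 were called lower with no UMI in any member fitted, and no fold is given for them.

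Most lists tied to the function of a marker gene held few calls, apart from the annexin, S100 and scaffold list of Ahnak described above. Of 11 genes of NAD and cyclic ADP-ribose metabolism, the pathway of Cd38, 0 were called against the other nuclei (median -0.73). Of 5 C-type lectin receptors tested, the family of Clec12a, 0 were called, and 1 of 16 genes of inhibitory receptor signalling, Inpp5d, fell. Ifi203 was the 1 called gene of 8 in the PYHIN family of Mndal, where the median log2 fold change was 1.13. None of 22 interferon-response genes (median 0.20), 22 second-stage DAM genes (median -0.46) or 18 lipid and lysosome genes (median -0.39) was called.

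The authors' deposited tables treat the same genes under other group names. The authors' deposited marker table, whose log base is not given in the sources used here, lists Mndal (5.12) and Cd38 (5.09) as log fold changes for a group named Mac, and Clec12a (4.12), Ahnak (3.62) and Mndal (3.62) for a group named MHCII. In the authors' deposited table of TERM against homeostatic nuclei, TERM being the group they marked with Gpnmb, log fold changes were 4.56 for Hal, 5.33 for Cd38, 5.50 for Mndal, 4.46 for Ahnak and 4.91 for Clec12a, and -0.14 for Ccr2. In the authors' deposited table of P301S/E4/TREM2+ against P301S/E4/TREM2-, they were -3.09 for Hal, -3.52 for Cd38, -4.32 for Mndal, -2.42 for Clec12a and -25.91 for Ahnak, beside -0.51 for Gpnmb. The Ahnak value is not read here as a size of change. Ahnak had 35 UMIs in P301S/E4/TREM2+ members and 8 in its other nuclei, against 151 and 50 in P301S/E4/TREM2-.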

How the data were processed

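PU.1-sorted nuclei were sequenced on 10x Genomics v3.1 chemistry. The authors deposited raw UMI count matrices with 31053 features, made with Cell Ranger 3.0.1 on mm10 per the file headers and the submitters' processing notes. The authors' deposited tables hold log fold changes, read here as a score since their base is not stated, and p-values over nuclei, which were not used. The members and gene lists were chosen with earlier results of these data known. UMIs were summed per library and class and fitted with library and class as terms in edgeR (version 4.0.16, under R 4.3.3), TMM factors, filterByExpr and the quasi-likelihood F test, libraries needing 10 nuclei in each class; the standard error (SE) is the fold change over the root of F. A gene passed at a Benjamini-Hochberg adjusted p of 0.05, and the rule genes got no call. Named genes were the 12 highest and 12 lowest called genes with at least 50 UMIs and 1 direction in every library, the 15 highest and 15 lowest ratios in P301S/E4/TREM2-, the called genes and the 4 most abundant of each list, and genes picked for the subset comparisons after their values were seen. DESeq2 1.42.0 was an alternative. The scripts were tested on simulated data. Clusters came from scanpy 1.11.5 and leidenalg 0.10.2 at resolution 1, without the rule genes. Levels are CPM of summed UMIs with exact Poisson intervals, shares carry exact binomial intervals, and ratios add 0.5 UMI to both classes. No doublet caller was run, so doublets remain. Depth was 29794968 UMIs in all, and 307 nuclei, all of P301S/EKO/TREM2-, had under 200 genes. Each library being 1 pool, p-values measure only how the difference between classes varied between these pools, which differ in genotype. In both main fits the prior degrees of freedom were infinite. That spread was therefore taken from the trend over all genes and not from each gene. Both classes come from the same library, which is why it is a term of the fit. Gene locations are from GENCODE vM21, sequences from RefSeq.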

Additional observations from a re-analysis of the deposited data

How the results depend on the processing

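P301S/E4/TREM2- held 77.7% of the members, and 68.1% after thinning, 82.9% with 3 or more marker UMIs, 82.5% with 2 or more different marker genes, 83.1% without Clec12a in the rule, 83.0% without Mndal and 87.3% at 500 genes per nucleus; the other settings gave 75.6% to 81.3%. The cluster share of 73.75% was 65% and 66.7% at resolutions 0.5 and 2. Against Gpnmb-positive nuclei the 63 calls became 21 by DESeq2's test, 13 at 3 marker UMIs, 12 without nuclei above 3 times the median UMI count and 13 without astrocyte transcripts. Against the other nuclei the 164 calls became 249 with DESeq2 size factors, 89 by DESeq2's test, 418 with no filter on low counts, 105 with 2 marker genes, 73 at 500 genes, 101 with 20 nuclei per class and 108 without MHC class II nuclei. Leaving out 1 library gave 99 to 167 calls, the lowest without P301S/E4/TREM2-. Without the replicate block of library, 1 and 92 calls were made. Log2 fold changes turned without high-UMI nuclei for Slc1a2 (-0.17, against Gpnmb-positive nuclei), Aqp4 (-0.60), Gfap (-0.25) and Mobp (-1.43, all against the other nuclei), and for Gfap without astrocyte transcripts (-0.20). Gfap is itself on the list that chose the nuclei left out in that last setting. The settings on astrocyte and MHC class II transcripts were chosen after seeing the data. For these changes the cause was not tested. Against Gpnmb-positive nuclei, leaving out a library or asking for 2 marker genes left 1 library and gave no test. Few members outside P301S/E4/TREM2- limit what could be detected there.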

Other observations

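The rule left out 308 further nuclei that had 2 or more UMIs of the 5 marker genes together with 2 or more of the macrophage genes F13a1, Mrc1, Cd163, Cd209f and Cbr2. They numbered 131 in P301S/E4/TREM2- (1.87% of passing nuclei), 55 in P301S/E4/TREM2+ (0.889%), 27 in E4/TREM2+ (0.531%), 23 in P301S/EKO/TREM2+ (0.642%), 24 in P301S/EKO/TREM2- (0.475%) and 48 in E4/TREM2- (0.994%). P301S/E4/TREM2- was highest here, but the same 5 marker genes chose these nuclei and the members, so this is no separate observation. Of the 308, 29 had a Gpnmb UMI, 26 of them in P301S/E4/TREM2-, and 87 had 3 or more MHC class II UMIs. Among the 309 members, 57 held a single UMI of the macrophage genes.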
